A study of Homo sapiens with 10 samples.

Results

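Autophagy machinery, a set of 39 genes chosen by name from the steps of autophagosome formation, was followed in HepG2 cells, a human hepatoma line. The set was chosen with earlier results of these data known. All 39 were found by gene symbol among the 32738 genes of the count table. Control cells received regular growth medium and the treated cells the same medium with 2 µg/ml tunicamycin, an inhibitor of N-linked glycosylation that causes endoplasmic reticulum (ER) stress, both for 17 h. Each condition was measured in 5 libraries of 3′ mRNA sequencing, from 5 replicate experiments on separate days, and the libraries held 2234682 to 5029864 counts, with tunicamycin replicates 5 and 4 the shallowest. Both conditions use the same cell line, so that no primary hepatocyte or second line is represented, and in such bulk samples fewer expressing cells and less RNA per cell cannot be told apart. Messenger RNA was measured, not autophagosomes, protein or degradation by the lysosome.

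Autophagy delivers cytoplasm to the lysosome in a double-membrane vesicle. A kinase complex starts it, a lipid kinase marks the growing membrane with phosphatidylinositol 3-phosphate (PI3P), lipid is moved in, and 2 ubiquitin-like conjugation systems attach proteins of the ATG8 family (LC3 and GABARAP) to the membrane, where receptors bring cargo. In hepatocytes the pathway is known for turning over proteins, lipid droplets and organelles, and several of its genes are known targets of ER stress signalling.

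The treatment and the cell type were checked first. HSPA5, the ER chaperone BiP, was higher in tunicamycin libraries by a log2 fold change of 2.97, and the stress genes HERPUD1 and DDIT3 by 2.78 and 1.42. The hepatocyte genes ALB, AFP, APOA1, APOB, TF, SERPINA1, TTR and HNF4A were all detected in every library. Of these 8, 4 were called lower in tunicamycin cells (50%) and none higher, beside 16.6% lower and 17.6% higher over all genes tested. The log2 fold changes of these 4 were -1.02 for TTR, -0.91 for APOA1, -0.78 for APOB and -0.38 for TF. The part of these decreases in the results was not tested. Of 7 markers of other liver cells in the table, PTPRC was at 0 in all libraries, VWF, COL1A1 and COL3A1 did not exceed 5 counts in any library, and CD68, ACTA2 and LYZ were detected, with CD68 lower in tunicamycin cells by 0.83 on the log2 scale. Summed over these markers, control libraries held 1331 to 1749 and tunicamycin libraries 1292 to 2162 normalized counts, or 128.6 to 198.8 and 65.88 to 201.9 without LYZ, and their part in the results was not tested. The mitochondrial share of all counts was 22.7% to 25.2% under control conditions and 18.3% to 28.8% under tunicamycin, highest in tunicamycin replicate 4.

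Of the 39 genes, 37 had enough reads to be tested. Tunicamycin raised 12 of them and lowered 4, by edgeR's quasi-likelihood test at a threshold of 0.05 after Benjamini-Hochberg adjustment over 12733 genes, while 21 did not pass. Over all genes tested, 17.6% were called higher and 16.6% lower, against 32.4% and 10.8% of the 37 autophagy genes. The median log2 fold change was 0.23 for these 37 genes and -0.003 for all genes tested. The increases reached about 4-fold, whereas no decrease exceeded 0.60 on the log2 scale. All 5 tunicamycin libraries lay above all 5 control libraries in 11 genes and below them in 4, where the shares over all genes tested were 11.7% and 11.9%. With library sizes scaled by totals only, 9 were called higher and 5 lower, so that 64.3% of the called members were higher in place of 75%. With the replicate experiments as a block, 14 were called higher and 4 lower. Without control replicate 1 the number called lower was 2.

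**Figure D1:**
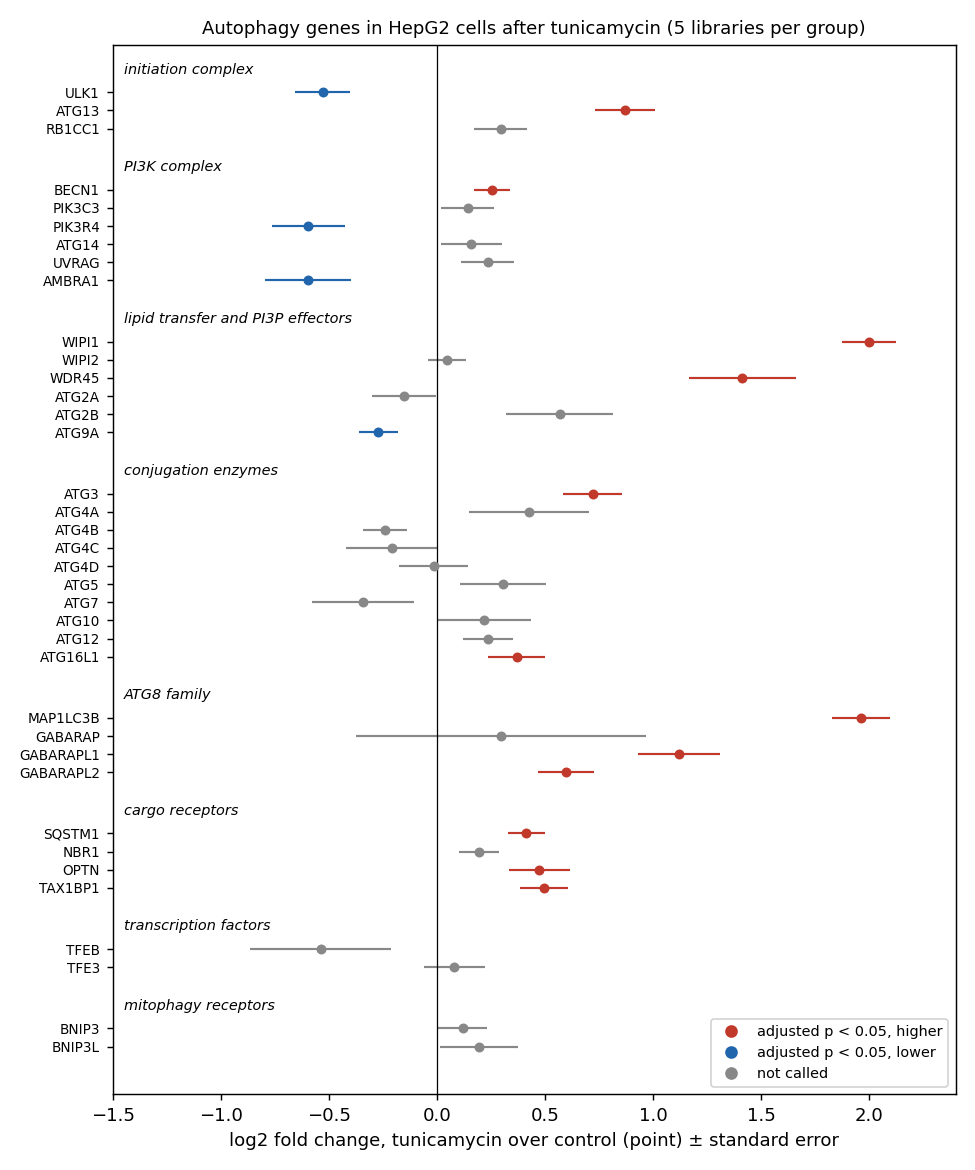
Log2 fold change of tunicamycin over control cells (x axis, point) with its SE (line) for each of the 37 tested autophagy genes (y axis), grouped by role, in red or blue where the adjusted p was under 0.05. WIPI1 at 2.00 and MAP1LC3B at 1.96 stand farthest to the right, and the 4 genes in blue lie between -0.60 and -0.27.

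As counts, the autophagy genes took 0.144% to 0.154% of each control library and 0.153% to 0.2% of each tunicamycin library. The lowest tunicamycin share, 0.153%, was that of replicate 4, the library with the highest mitochondrial share, and it lay inside the control range. The part of mitochondrial counts in the results was not tested. Normalized counts are counts scaled to a common library size with TMM factors. They are listed in replicate order, ± gives the SD over the 5 libraries of a condition (n = 5), and SE is the standard error of the log2 fold change. The reads come from the 3′ end of transcripts, so that counts were not divided by gene length.

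The 4 genes with the largest called fold changes were WIPI1 and WDR45, which encode PI3P-binding proteins, and MAP1LC3B and GABARAPL1, of the ATG8 family. The 250 bases before the annotated start sites of these genes (RefSeq, GRCh38.p14, 5′ to 3′ on the gene's strand) are shown. The genes were picked by the size of their fold changes, and joint regulation was not tested. Capitals mark matches, on either strand, to TGATGNAA (the C/EBP-ATF element bound by ATF4 with C/EBP partners) or TGANTCA (the AP-1 site).
WIPI1, chr17:68457497-68457746, minus strand: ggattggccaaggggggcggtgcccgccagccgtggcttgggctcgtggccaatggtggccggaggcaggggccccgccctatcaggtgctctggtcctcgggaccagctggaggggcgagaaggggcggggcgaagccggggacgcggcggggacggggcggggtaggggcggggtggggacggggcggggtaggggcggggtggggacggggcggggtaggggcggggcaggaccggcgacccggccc
MAP1LC3B, chr16:87392086-87392335, plus strand: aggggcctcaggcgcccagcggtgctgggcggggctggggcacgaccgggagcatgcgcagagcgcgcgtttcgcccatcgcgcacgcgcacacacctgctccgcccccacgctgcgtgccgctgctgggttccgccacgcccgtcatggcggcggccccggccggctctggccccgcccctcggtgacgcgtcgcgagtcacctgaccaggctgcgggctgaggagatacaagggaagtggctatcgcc
WDR45, chrX:49079888-49080137, minus strand: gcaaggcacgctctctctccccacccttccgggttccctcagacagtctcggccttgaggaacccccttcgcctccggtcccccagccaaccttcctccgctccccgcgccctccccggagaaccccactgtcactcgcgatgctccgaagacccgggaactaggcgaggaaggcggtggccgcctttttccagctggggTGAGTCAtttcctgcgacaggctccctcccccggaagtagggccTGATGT
GABARAPL1, chr12:10212627-10212876, plus strand: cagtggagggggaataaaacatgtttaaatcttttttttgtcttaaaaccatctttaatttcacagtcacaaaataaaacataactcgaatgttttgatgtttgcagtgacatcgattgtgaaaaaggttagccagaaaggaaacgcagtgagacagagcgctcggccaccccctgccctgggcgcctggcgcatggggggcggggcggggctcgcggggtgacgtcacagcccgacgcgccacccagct

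Only the WDR45 sequence among these 4 holds a match to TGATGNAA or TGANTCA. Its AP-1 match, TGAGTCA, begins 50 bases before the start site, and its C/EBP-ATF match, TGATGTAA, begins 6 bases before it and runs across it, so that its last bases are not shown. A second start site of WDR45, farther upstream, held neither. RefSeq windows of 300 bases (250 before and 50 after the start site) were found for 34 of the 39 genes, 45 windows in all. TGATGNAA was present in 1 of these 45 windows and in 3.62% of all 35116 windows of the table, and TGANTCA in 2 of 45, those of WDR45 and TFE3, and in 7.71% of all. CACGTG, the core of the E-box that TFEB and TFE3 bind, was present in windows of ATG14, ATG3 and BNIP3 (3 of 45) and in 7.26% of all windows. The window of ATG3 held it at 18 bases before the start site and again at position 6 within the transcript. Neither the ER stress response element (CCAAT and CCACG, 9 bases apart) nor TGACGTGG was found in the 45 windows, and they were present in 0.0769% and 0.729% of all. A match is a description of letters, not evidence of binding. The absence of a match holds only for the patterns named here and for this window, and other elements were not searched.

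Autophagy starts with the ULK complex, made of the kinases ULK1 or ULK2 with ATG13 and the scaffold RB1CC1 (FIP200), and its members moved in different directions. ATG13, the subunit that links the kinase to the scaffold, had 209, 202, 199.5, 196 and 250 normalized counts in the control libraries and 285.5, 354, 350.5, 545 and 409.6 in the tunicamycin libraries. The groups did not overlap, and tunicamycin replicate 4 was the highest. ATG13 rose by 0.87 on the log2 scale (SE 0.14, adjusted p = 8.03e-05), with ratios between 0.45 and 1.47 within the 5 replicate experiments. ULK1 fell, from 168 ± 17.4 to 116 ± 17.7 normalized counts, or by 0.53 on the log2 scale (SE 0.13, adjusted p = 0.00336), and it was lower in each of the 5 experiments. RB1CC1 had a log2 fold change of 0.30 (SE 0.12, adjusted p = 0.0705) and overlapping groups. In the fit with the replicate experiments as a block its adjusted p was 0.0291 in edgeR and 0.0675 in DESeq2, and without tunicamycin replicate 4 it was 0.0235, with a log2 fold change of 0.37. ULK2, the second kinase, held at most 1 count in any library and could not be tested at this depth, where up to 3 counts per library may be missed.

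The lipid kinase complex makes PI3P. Its catalytic subunit PIK3C3 (VPS34) and its partners ATG14 and UVRAG, which direct it to the autophagosome or the endosome, had log2 fold changes of 0.14, 0.16 and 0.23 and did not pass (adjusted p = 0.398, 0.408 and 0.153). BECN1 (Beclin 1), the scaffold of the complex, rose from 379 ± 21.6 to 451 ± 21.9 normalized counts, the smallest increase called among the autophagy genes, at 0.25 on the log2 scale (adjusted p = 0.0225). Its call was lost without control replicate 2 (adjusted p = 0.0571), without tunicamycin replicate 3 (0.062) and with scaling by library totals (0.172). PIK3R4 (VPS15), the regulatory kinase subunit, had 53.4, 60.6, 55.1, 67.2 and 62 normalized counts in the control libraries and 53.2, 33.7, 36.8, 34.3 and 36.3 in the tunicamycin libraries. The groups were separate only by a narrow margin, since tunicamycin replicate 1 lay just under the lowest control. PIK3R4 fell by 0.59 on the log2 scale (SE 0.17, adjusted p = 0.0107). AMBRA1, which regulates the complex, had 43, 35.7, 31.5, 41.2 and 37.6 normalized counts in the control libraries and 21.1, 30.8, 20.8, 28.9 and 24.2 in the tunicamycin libraries, with no overlap. It fell by 0.60 on the log2 scale (SE 0.20, adjusted p = 0.0264), but this call was lost without control replicate 1 or 4 or tunicamycin replicate 1 or 3, with adjusted p-values of 0.0596, 0.0605, 0.0690 and 0.0729. DESeq2 with the replicate block gave AMBRA1 an adjusted p of 0.108.

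Among 6 genes for proteins that read PI3P or supply lipid, 2 rose (33.3%), 1 fell (16.7%) and 3 did not pass. The shares over all genes tested were 17.6% higher and 16.6% lower. WIPI1, which binds PI3P at the site where the autophagosome forms, is encoded on chromosome 17 of GRCh38 (68420948 to 68457513, minus strand). It had 59.4, 74.9, 50.7, 74.4 and 68.1 normalized counts in the control libraries and 246, 296, 271, 255.5 and 238 in the tunicamycin libraries. The lowest tunicamycin library held more than 3 times the counts of the highest control library. Its log2 fold change of 2.00 (SE 0.13, adjusted p = 6.23e-10) was the largest of the 37 tested genes, and it ranged from 1.77 to 2.41 within the replicate experiments. WIPI2, the paralog that recruits the conjugation enzyme complex, stayed near its control level with 336 ± 14.9 and 347.5 ± 26.6 normalized counts and a log2 fold change of 0.05 (SE 0.09).

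The ratio of WIPI1 to WIPI2 within a library does not depend on scaling. Its log2 value went from -2.37 ± 0.19 in control to -0.41 ± 0.19 in tunicamycin libraries, a difference of 1.95 (p = 0.00794 by a two-sided exact permutation test, which cannot give a lower value with 5 libraries a side). Such ratios were tested for 11 of 13 paralog or partner pairs, those with both genes above the filter. After adjustment over the 11 pairs the p for WIPI1 and WIPI2 was 0.0873, which is also the lowest value that a single fully separated pair could reach, so that the adjusted test could not call one pair alone whatever its size. Of the 11 pairs, 2 had an unadjusted p under 0.05. The other was NBR1 against SQSTM1, with a difference of -0.23 (exact permutation test, p = 0.0238, adjusted 0.131).

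WDR45 (WIPI4), a further PI3P-binding protein and partner of ATG2, lies on chromosome X (49074433 to 49101170, minus strand). It had few reads, with 17.2, 9.81, 20.1, 22.4 and 18.3 normalized counts in the control libraries and 46.5, 41.7, 69.9, 34.3 and 38.3 in the tunicamycin libraries. All tunicamycin libraries exceeded all control libraries, and the log2 fold change was 1.41 (SE 0.25, adjusted p = 0.000209). The last 300 bases of a WDR45 transcript were 96% identical to a processed pseudogene, WDR45P1 on chromosome 4, so that its count is uncertain to that extent. ATG2A and ATG2B transfer lipid to the membrane and had log2 fold changes of -0.15 and 0.57, neither of them called (adjusted p = 0.459 and 0.0831). ATG2B was called with the replicate block in edgeR (log2 fold change 0.61, adjusted p = 0.0161) but not in DESeq2 (0.62, adjusted p = 0.0521). It was also called without control replicate 4 (0.74, adjusted p = 0.0348) and without tunicamycin replicate 1 (0.69, adjusted p = 0.0363). ATG9A, the membrane protein of the vesicles that seed autophagosomes, fell from 537 ± 53.9 to 444 ± 31.4 normalized counts, or by 0.27 on the log2 scale with an adjusted p of 0.0271. Leaving out control replicate 1 or 2 or tunicamycin replicate 2, 4 or 5 ended this call, with adjusted p-values of 0.0582, 0.0807, 0.0653, 0.0727 and 0.0554.

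**Figure D2:**
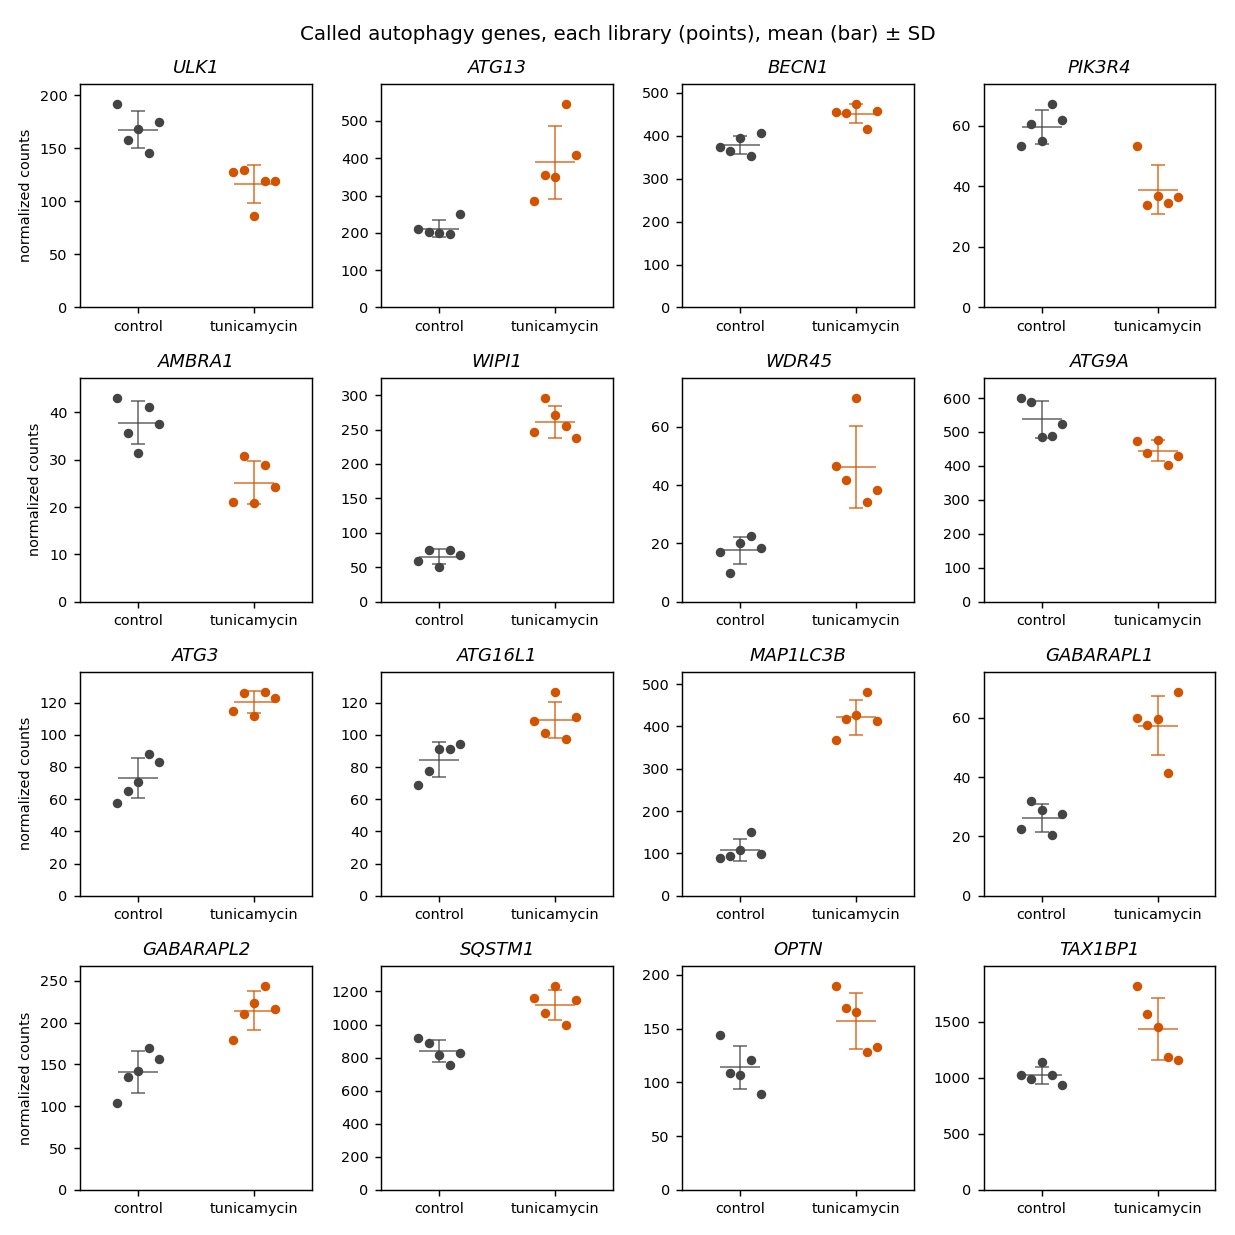
Normalized counts (y axis, from 0) of the 16 called autophagy genes in each of the 5 control and 5 tunicamycin libraries (points), with the mean (horizontal bar) and SD (error bar). The groups do not overlap in any of these genes other than OPTN, and PIK3R4 shows a tunicamycin library at 53.2, next to the lowest control at 53.4.

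Of 10 conjugation genes, which activate, process and attach the ubiquitin-like proteins, 2 rose (20%) and none fell. The share that rose was near that over all genes tested, 17.6%, where 16.6% were lower. ATG3, the E2-like enzyme that transfers ATG8 proteins to lipid, had 57.7, 65.1, 70.9, 87.8 and 83.4 normalized counts in the control libraries and 114.9, 126, 111.5, 126 and 123 in the tunicamycin libraries. The groups were well apart, and ATG3 rose by 0.72 on the log2 scale (SE 0.14, adjusted p = 0.000419). ATG16L1, which places the conjugation complex on the membrane, rose by 0.37 (SE 0.13, adjusted p = 0.0375), from 84.7 ± 11 to 109 ± 11.2 normalized counts. This was the least stable of the calls, as it was lost without control replicate 1 or 2 or tunicamycin replicate 1, 3 or 5 (adjusted p = 0.0862, 0.0871, 0.0527, 0.115 and 0.0615) and with 4 other settings, among them DESeq2 with the replicate block (0.0899). ATG7, the E1-like enzyme, was at 41.9 ± 10.6 and 33.2 ± 10.7, and ATG5, ATG12 and ATG10, which form the second conjugation system, had log2 fold changes of 0.30, 0.24 and 0.22. None of these passed. The proteases that trim ATG8 proteins, ATG4A, ATG4B, ATG4C and ATG4D, had log2 fold changes of 0.43, -0.24, -0.21 and -0.01, also not called.

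The ATG8 family, whose lipid-bound forms are the usual mark of autophagosomes, had 3 of 4 tested genes higher, beside 17.6% of all genes tested. Its median log2 fold change was 0.86. MAP1LC3B (LC3B), on chromosome 16 of GRCh38 (87383953 to 87404779, plus strand), had 88.7, 92.7, 108, 151 and 98.6 normalized counts in the control libraries and 367, 417, 428, 481 and 414 in the tunicamycin libraries. Every tunicamycin library was more than 2 times the highest control, and the log2 fold change was 1.96 (SE 0.13, adjusted p = 1.74e-09). GABARAPL1 had 22.4, 32.1, 28.9, 20.6 and 27.4 normalized counts in the control libraries and 60, 57.6, 59.5, 41.2 and 68.6 in the tunicamycin libraries. It rose by 1.12 on the log2 scale (SE 0.19, adjusted p = 0.000148), with tunicamycin replicate 4 the nearest to the controls. GABARAPL2 had 103, 135, 143, 169 and 156.5 normalized counts in the control libraries and 179, 210.4, 223, 243 and 216 in the tunicamycin libraries, again without overlap. It rose by 0.60 (SE 0.13, adjusted p = 0.00141). The difference between GABARAPL2 and GABARAPL1, -0.50 on the log2 scale of their ratio, did not pass (exact permutation test, p = 0.0714, adjusted 0.175), although it was negative in 5 of 5 experiments.

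The other members of the family were near or under the limit of the data. GABARAP had 0 to 10 counts per library and a log2 fold change of 0.30 with an SE of 0.67. In the GENCODE annotation 691 exonic bases of GABARAP are shared on the same strand with another gene (ENSG00000262526), which was listed with 0 counts in every library, and how reads falling in both genes were counted was not stated. MAP1LC3A had 1 count in control replicate 5 and 0 elsewhere, so that it was not detectable at this depth. MAP1LC3B2, a copy of MAP1LC3B with 97.9% identity over 746 bases, was listed at 7.56 ± 4.17 and 33.6 ± 8.17 normalized counts (log2 fold change 2.15, adjusted p = 7.04e-05), and reads from one of the 2 genes could be counted on the other.

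Within the summed counts of the family, 259 to 383 per control library and 350 to 755 per tunicamycin library, MAP1LC3B held 34.5% to 44.1% in control and 58.6% to 62.7% in tunicamycin libraries. GABARAPL2 held 46.3% to 54.8% in control and 29.1% to 31.7% in tunicamycin libraries. GABARAPL1 held 6.01% to 12% and 5.38% to 9.75%, so that its share overlapped between conditions while its normalized counts did not. Among the 5 genes as counted, GABARAPL2 held the largest share in all 5 control libraries and MAP1LC3B in all 5 tunicamycin libraries. GABARAP held 0% to 3.86% in control and 0.179% to 1.37% in tunicamycin libraries, a share as uncertain as its count. MAP1LC3B2, which may hold reads of MAP1LC3B, was left out of the sum. These shares do not depend on library scaling, and they are given as a description with no test.

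**Figure D3:**
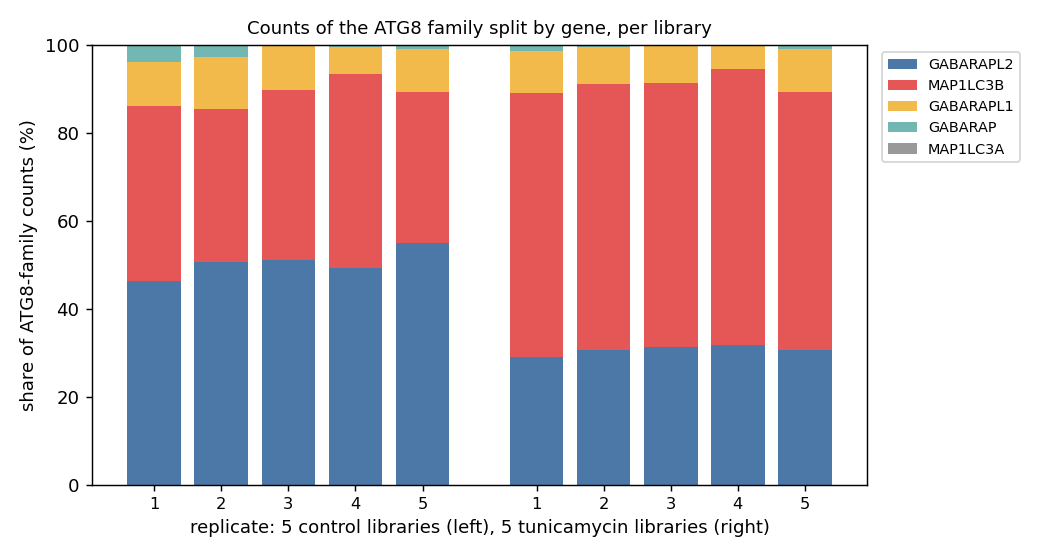
Share of the summed ATG8-family counts (y axis, percent) held by each of the 5 genes in each library (x axis, 5 control and 5 tunicamycin replicates). MAP1LC3B covers 34.5% to 44.1% of the control bars and 58.6% to 62.7% of the tunicamycin bars, and GABARAPL2 shrinks to 29.1% to 31.7%.

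Cargo receptors bind both ubiquitin-marked cargo and ATG8 proteins. Of the 4 in this set, which does not hold all known receptors, 3 were higher, beside 17.6% of all genes tested, and each by less than 1.5-fold. SQSTM1 (p62), itself degraded by autophagy as a protein, rose from 840.4 ± 64.1 to 1120 ± 90.4 normalized counts, or by 0.41 on the log2 scale (SE 0.09, adjusted p = 0.000964), and the groups did not overlap. TAX1BP1 rose from 1022 ± 75.4 to 1439 ± 275.5 (log2 fold change 0.50, SE 0.11, adjusted p = 0.00198). Its tunicamycin values of 1818, 1572, 1459, 1184 and 1162 in replicates 1 to 5 were uneven, with the 2 shallowest libraries, replicates 4 and 5, nearest to the highest control at 1140. OPTN (optineurin), a receptor for mitochondria and bacteria, rose by 0.47 (SE 0.14, adjusted p = 0.0136) with overlapping groups, since control replicate 1 at 144 exceeded tunicamycin replicates 4 and 5 at 128 and 133. The call for OPTN was lost with scaling by library totals (adjusted p = 0.0529) and with all libraries thinned to the smallest total (0.0565). NBR1 had a log2 fold change of 0.20 (SE 0.09, adjusted p = 0.109), was higher in 5 of 5 experiments and passed without tunicamycin replicate 4 (adjusted p = 0.0357).

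TFEB and TFE3, transcription factors that drive lysosomal and autophagy genes and are regulated mainly through their location in the cell, were not called. TFEB had 8.13 to 23.2 normalized counts in control and 5.5 to 16.1 in tunicamycin libraries (log2 fold change -0.54, SE 0.33, adjusted p = 0.215), and TFE3 had 102 ± 16.6 and 108 ± 15.6 (log2 fold change 0.08). The mitophagy receptors BNIP3 and BNIP3L, on the outer mitochondrial membrane and known as hypoxia targets, had log2 fold changes of 0.12 and 0.19 with SEs of 0.11 and 0.18, and neither passed. The log2 fold changes of the 21 genes that were not called lay between -0.54 and 0.57. The SE was about 0.20 or more for ATG2B, ATG4A, ATG4C, ATG5, ATG7, ATG10, TFEB and GABARAP. Changes well above the SE could be missed in these genes, since 0.57 in ATG2B (SE 0.25) and -0.54 in TFEB (SE 0.33) did not pass.

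**Figure D4:**
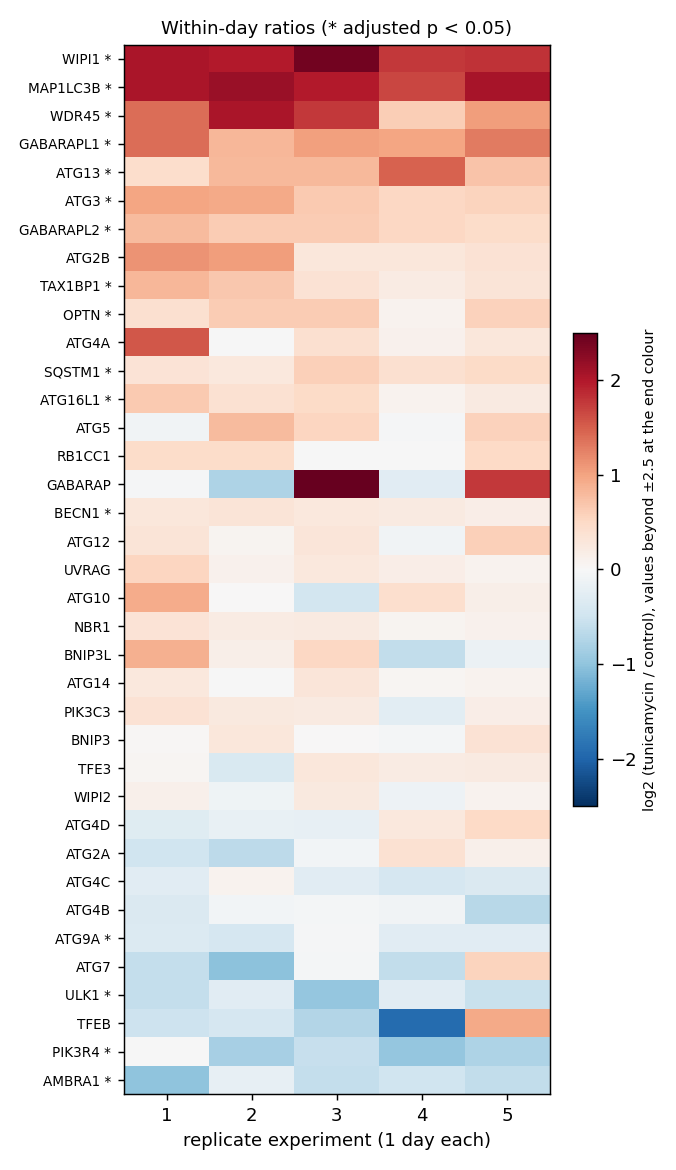
Log2 ratio of tunicamycin to control (colour, red higher and blue lower) for the 37 tested genes (rows, in order of log2 fold change) in each of the 5 replicate experiments (columns), with a star where the adjusted p was under 0.05. WIPI1, MAP1LC3B, WDR45 and GABARAPL1 are red in all 5 columns, and ULK1, AMBRA1, PIK3R4 and ATG9A are blue or near white in all 5.

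Each of the 12 higher genes had a ratio above 0 in 5 of 5 replicate experiments. Each of the 4 lower genes had a ratio below 0 in 5 of 5, although that of PIK3R4 in the first was only -0.004 and that of ATG9A in the third only -0.03. These ratios use the libraries that gave the calls, and groups without overlap must have the same sign in all 5. They are therefore not separate support for the calls. The share of all genes tested with the same sign in all 5 was not counted. Among genes not called, UVRAG, ATG2B and NBR1 were also higher in all 5, and ATG4B was lower in all 5.

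Further autophagy genes outside the 39 were taken from a list of 32, all of them in the table, of which 30 were tested. Of these, 9 were called higher (30%) and 4 lower (13.3%), with a median log2 fold change of 0.18. The shares over all genes tested were 17.6% and 16.6%, and this list was chosen with earlier results of these data known. TMEM41B, an ER scramblase needed to build the autophagosome membrane, rose from 91.1 ± 20.1 to 242 ± 31.9 normalized counts, a 2.64-fold increase (adjusted p = 4.92e-07). TP53INP2, a nuclear factor that binds ATG8 proteins, rose by 1.55 (adjusted p = 0.0012), SH3GLB1, a membrane-bending partner of the Beclin 1 complex, by 0.81 (adjusted p = 2.29e-05) and the mitochondrial receptor BCL2L13 by 0.63 (adjusted p = 0.00227). TP53INP2 was uneven within groups, with 11.2 to 44.7 normalized counts in control and 28.7 to 97.5 in tunicamycin libraries. ATG16L2, a paralog of ATG16L1, fell by 0.61 on the log2 scale (adjusted p = 0.018), although control replicate 1 at 37 lay within the tunicamycin range.

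Kinases and sensors upstream of the ULK complex were counted in a list of 30 genes of mTORC1 and AMPK control, 28 of them tested. Of these, 4 were called higher (14.3%) and 3 lower (10.7%), both under the shares over all genes, and the median log2 fold change was -0.05. RHEB, the GTPase that activates mTORC1, rose by 0.74 (adjusted p = 0.00364), LAMTOR3, part of its lysosomal anchor, rose by 0.97 (adjusted p = 0.00303), and RRAGD, a Rag GTPase, fell by 0.71 on the log2 scale (adjusted p = 0.00058). The number called lower was 5 with scaling by library totals.

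Genes on the other strand overlap some of these transcripts, and whether counting used the strand was not stated. The last 500 exonic bases of WIPI1, from which most 3′ reads arise, are covered by exons of ARSG on the opposite strand, which had 3 to 13 counts per library. Those of SQSTM1 are covered by MRNIP, listed as C5orf45 with 32 to 130 counts, those of BECN1 by CNTD1 with at most 1 count, and those of ATG7 by VGLL4 with 67 to 230 counts. RPS23, a ribosomal protein gene, covers 161 of the last 500 bases of ATG10 and had 1580 to 3599 counts, against 14 to 49 for ATG10, and it was higher in tunicamycin cells by 0.69 on the log2 scale (adjusted p = 7.52e-05). KRI1 covers 334 of those of ATG4D, with 34 to 135 counts. Those of ATG9A are shared on the same strand with another annotated gene (ENSG00000284820). Near-identical copies were found for the ends of BNIP3 (BNIP3P1, 98.3% identity), GABARAPL1 (the pseudogene GABARAPL3, 95.7%, with 0 counts in all libraries) and GABARAP (95.5%), whose counts are uncertain to that extent.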

How the data were processed

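HepG2 cells were sequenced with the QuantSeq 3′ mRNA-Seq kit (FWD). The authors processed the reads with the nf-core pipeline for RNA-Seq at its defaults, against hg19 and the Ensembl annotation, and deposited raw counts per gene, without normalization or filter. The aligner, counting program and strand setting were not given in the sources used here. Every sample column was used and matched to its library by name.

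Genes were filtered with filterByExpr (minimum count 2, minimum total 10, as in the study's methods), scaled by TMM and tested across all 12733 genes with edgeR 4.0.16 (R 4.3.3), using quasi-likelihood F tests of condition alone and Benjamini-Hochberg adjustment at 0.05. The study used DESeq2, which was run as an alternative (DESeq2 1.42.0). The SE is the log2 fold change over the square root of F. Ratios within replicate experiments or between 2 genes used normalized counts with a pseudocount of 0.5. Replicate numbers mark separate days in the series text, so that they pair the libraries. The deviations of paired libraries from their group means correlated at 0.36, 0.0197, 0.0764, 0.162 and 0.137 over 9707 genes.

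Other settings were DESeq2's size factors, library totals, no filter, default minimums, the replicate block in both tools, thinning to the smallest total, each library left out and, added after the data were seen, both tunicamycin libraries with the fewest counts (replicates 4 and 5) left out. The edgeR fit was tested on simulated data. Members and lists were chosen with earlier results of these data known. All 39 members are named, with values per library where the adjusted p was under 0.05 and the log2 fold change at least 0.58 in size, and up to 6 genes past these limits per further list. Positions and overlaps come from GRCh38 with GENCODE 44 by Ensembl identifier, copies from BLAST+ 2.17.0 (at least 95% identity over 100 bases of the last 300), and no hg19 coordinate is given. Totals of 2234682 to 5029864 counts limit the precision for genes with few reads.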

Additional observations from a re-analysis of the deposited data

Results flagged for a closer look

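In 5 of 80 groups of 5 values, 1 library lay far from the other 4, where chance gives about 1 in 20, or 4 groups. The groups were the normalized counts of the 37 tested genes in each condition and 3 library measures, and no library measure was among the 5. ULK1 was at 86 normalized counts in tunicamycin replicate 3, with the other 4 at 119 to 130. ATG13 was at 250 in control replicate 5, with the others at 196 to 209. PIK3R4 was at 53.2 in tunicamycin replicate 1, with the others at 33.7 to 36.8. ATG5 was at 84.8 in tunicamycin replicate 5, with the others at 51.5 to 57.7. TFEB was at 8.13 in control replicate 5, with the others at 19.3 to 23.2. These values fall in 4 libraries, and their cause was not tested.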

How the results depend on the processing

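Of the 16 calls among the autophagy genes, 10 were kept in each of the 19 alternatives: those of ULK1, ATG13, WIPI1, WDR45, ATG3, MAP1LC3B, GABARAPL1, GABARAPL2, SQSTM1 and TAX1BP1. The other 6 were lost in at least 1, and 4 of these (BECN1, AMBRA1, ATG9A and ATG16L1) in at least 1 of the 10 fits that left out a library. PIK3R4 was lost only with tunicamycin replicates 4 and 5, the shallowest libraries, left out together, an alternative chosen after seeing the data (adjusted p = 0.0575). No called gene changed direction, while 6 of the 21 genes not called changed sign in at least 1 setting. Conversely 5 genes gained a call in at least 1 setting (RB1CC1, ATG2B, ATG4B, ATG12 and NBR1). The number called higher was 10 to 14 with a library left out and 9 to 14 otherwise. The number called lower was 2 to 4 with a library left out (2 without control replicate 1), 2 with all libraries thinned to the smallest total and 2 without the 2 shallow libraries. With the replicate block, 14 genes were called higher and 4 lower in edgeR, and 11 and 3 in DESeq2. In the mTORC1 and AMPK list, 5 genes in place of 3 were lower with library totals only. For the 11 ratios between paired genes, a single separated pair could not go below an adjusted p of 0.0873 with all libraries (exact permutation test). That limit is higher with libraries left out, so that these settings say nothing about the stability of the ratios. Low counts limit TFEB, GABARAP, ULK2 and MAP1LC3A most. For GABARAP, whether depth or the handling of reads shared with an overlapping gene lowered the counts was not tested. The causes of these changes were not tested.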
